A study of Mus with 12 samples.

Results

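The genes described here are those of NRF2 signalling, glutathione and antioxidant defence in the mouse kidney. They were taken from a list of 41 gene symbols, matched to the gene symbols of the array's probe sets, and 38 of the 41 were found among the 19505 named genes. Prdx6, G6pdx and Tkt were not matched by symbol and were not analysed here. Kidney RNA of male mice of 6 months on a C57Bl/6j background was hybridised to 12 Clariom S arrays, 1 mouse on each array and 3 arrays in each of 4 groups. WT control and KO control mice were given saline, and WT AKI and KO AKI mice cisplatin at 15 mg/kg, with 3 days of treatment in the labels. Cisplatin is a platinum chemotherapy drug that injures the tubules of the kidney. KO stands for the Apobec1 knockout, homozygous according to the study's methods, and Apobec1 encodes an enzyme that edits cytidine in RNA. The labels state that the KO mice were bred in house and the WT mice were bought, so the genotype and the origin of the mice cannot be told apart.

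NRF2, the protein of Nfe2l2, is a transcription factor that KEAP1 holds back by directing it to degradation. When oxidants or electrophiles modify KEAP1, NRF2 accumulates, pairs with small MAF proteins and switches on genes that carry antioxidant response elements. These genes make and recycle glutathione and thioredoxin, conjugate or reduce reactive compounds, pump conjugates out of the cell and supply NADPH. In the kidney the proximal tubule takes up cisplatin and relies on glutathione to handle reactive compounds.

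The signal of Apobec1, the targeted gene, was above background on all 12 arrays and lay between 6.63 and 7.33 in WT control and between 7.50 and 7.66 in KO control on the log2 scale. After cisplatin it lay between 8.38 and 8.97 in WT AKI and between 7.33 and 9.75 in KO AKI, which overlapped (difference -0.12, adjusted p = 0.94). The part of the transcript that its probe set reads is not given in the sources used here, so this signal does not check the genotype labels. The study's methods state that genotyping and mRNA levels had shown the gene to be disrupted in the KO mice. Background, 6.15 to 6.52 over the arrays, was read from 23 antigenomic probe sets, designed to match no transcript of the mouse, at their 95th percentile on each array. The tissue label was checked with 20 genes of the proximal tubule, which were all above background on every control array. Their mean log2 signal was 16.42 to 16.47 with saline and 15.68 to 15.89 with cisplatin in WT mice, and 16.39 to 16.57 with saline and 11.52 to 15.35 with cisplatin in KO mice. KO AKI replicate 2 lay apart, with 19 of these 20 genes lower by more than 1 than the mean of replicates 1 and 3. In the same order, the mean of 9 genes of the injured tubule was 8.04 to 8.41, 11.27 to 12.28, 7.47 to 7.82 and 12.92 to 14.60, and that of 11 macrophage and monocyte genes 6.82 to 6.93, 7.45 to 8.19, 6.45 to 6.89 and 8.16 to 9.36. The part of these cell types in the results was not tested, and in whole kidney RNA fewer cells of a type cannot be told apart from less RNA per cell.

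Of the 38 measured genes, 34 were above background on all 12 arrays. Gpx2, a glutathione peroxidase of the gut, was above it on none. Slc7a11, Blvrb and Cbr3 were above background on 2, 5 and 4 arrays, none of them control arrays. Gpx3, the glutathione peroxidase that the kidney secretes into plasma, stood at the ceiling of the scale (19.93) on all 12 arrays and therefore gave no difference that could be read. All values below are log2 signals of a probe set, and a difference of 1 is a 2-fold change. A gene passed the test at a Benjamini-Hochberg adjusted p under 0.05 from limma, fitted to all 19505 genes and 12 arrays.

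Cisplatin raised many of these genes in both genotypes. In WT kidneys 13 of 38 rose and 3 fell, where 14% of all genes passed the test (8.63% up and 5.34% down). In KO kidneys 25 rose and 4 fell, where 27.9% of all genes passed (15.4% up and 12.6% down). The median difference of the 38 genes was 0.62 in WT and 1.33 in KO, beside 0.055 and 0.057 over all genes. With the genes that were not above background taken at their lower bounds, or at 0 where neither group was above it, the medians of the 38 genes were 0.40 and 1.12. The array groups did not overlap for 24 genes higher and 4 lower in WT AKI, where 22.2% and 17.5% of all genes were separated in this way. In KO AKI 23 genes were higher and 4 lower without overlap, beside 22.8% and 18.6% of all genes.

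The 13 genes that rose in both genotypes were Gclc, Txnrd1, Gsta2, Gsta3, Gsta4, Gstm1, Mgst1, Hmox1, Nqo1, Cbr1, Cbr3, Abcc4 and Pgd. The fitted rise was larger in KO for 9 of the 13, and the test of that difference is given further on. Sod2, Gstm2 and Me1 fell in both genotypes. Another 12 genes passed the test upward in KO alone (Nfe2l2, Sqstm1, Slc7a11, Gclm, Gsr, Txn1, Srxn1, Prdx1, Gstp1, Blvrb, Ugdh and Taldo1), and Sod1 passed it downward in KO alone. For none of these 12 genes did the difference between the 2 responses pass the test. The class also turned on which groups were fitted. In a fit of the compared groups alone 2 of the 12 passed in KO (Nfe2l2 and Srxn1), 5 passed in WT (Sqstm1, Slc7a11, Srxn1, Gstp1 and Ugdh), and Sod1 and Me1 did not pass in KO. Over all 19505 genes these fits called 2054 up and 1553 down in KO, and 2311 up and 1658 down in WT. Of the 38 genes, 15 passed upward in KO and 18 in WT in these fits. With all groups fitted, none of the 38 genes passed the test in opposite directions, and 9 passed it in neither genotype.

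**Figure D1:**
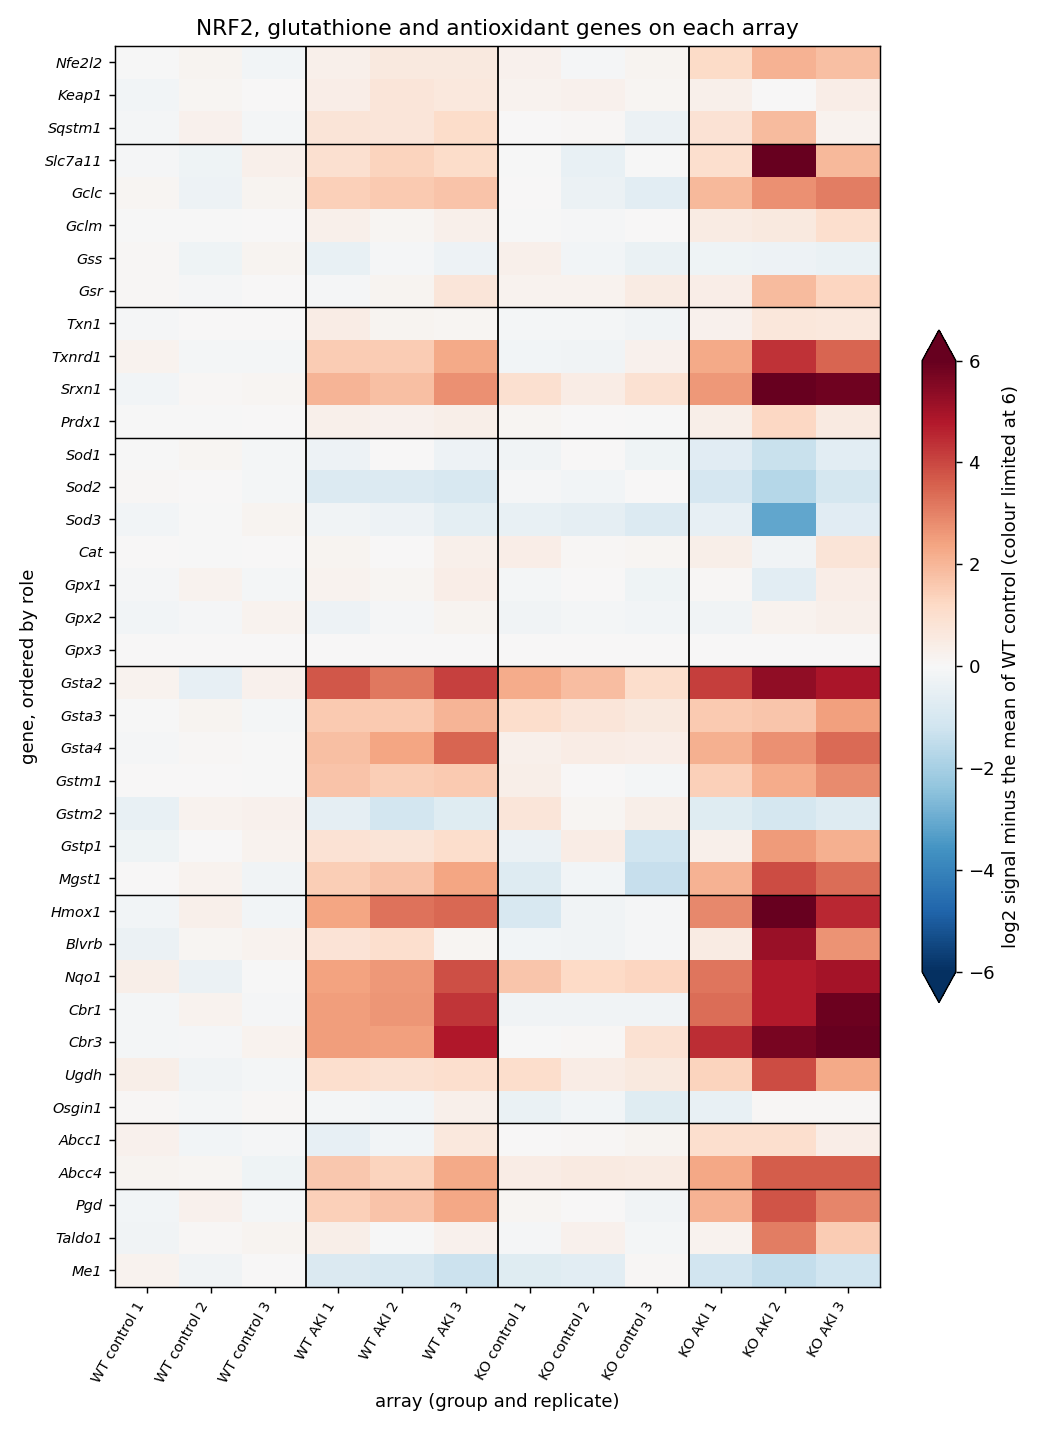
Log2 signal of the 38 genes (rows, ordered by role, with lines between roles) on the 12 arrays (columns), as the difference from the mean of WT control, with the colour scale limited at 6. The columns of WT AKI and KO AKI are red for most transferases, reductases and the thioredoxin system, the rows of Sod2, Gstm2 and Me1 are blue there, that of Sod1 is blue in KO AKI, and Gpx3 stands at the ceiling of 19.93 on all arrays.

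Among the regulators, Nfe2l2 had signals of 6.59, 6.80 and 6.47 in WT control and 6.93, 7.19 and 7.22 in WT AKI. In KO control it was at 6.90, 6.53 and 6.77, and in KO AKI at 7.79, 8.72 and 8.44. The 3 KO AKI arrays were above all other arrays, and the control arrays lay close to background. In KO kidneys Nfe2l2 rose 2.99-fold with cisplatin, a log2 difference of 1.58 (standard error 0.24, adjusted p = 0.000358). In WT kidneys the difference was 0.49 (standard error 0.24, adjusted p = 0.179), although the WT AKI arrays were all above the WT control arrays.

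Keap1, the adaptor that marks NRF2 for degradation, passed the test in neither genotype. Its signals were 7.39, 7.68 and 7.57 in WT control and 7.94, 8.28 and 8.20 in WT AKI, a difference of 0.59 (standard error 0.19, adjusted p = 0.0503). Those groups did not overlap, and without KO AKI replicate 2, which enters the shared estimate of the spread, the adjusted p of this WT difference was 0.0313. In KO control Keap1 was at 7.77, 7.82 and 7.65 and in KO AKI at 7.85, 7.55 and 7.96, which overlapped (difference 0.04, adjusted p = 0.899, and -0.08 with median centring). Sqstm1, the autophagy receptor p62 that can hold KEAP1 away from NRF2, was at 14.30, 14.67 and 14.30 in WT control and at 15.19, 15.16 and 15.54 in WT AKI (difference 0.87, adjusted p = 0.0928). In KO control it was at 14.46, 14.50 and 14.07, and in KO AKI at 15.30, 16.33 and 14.66. The AKI arrays were above the control arrays in each genotype, and the KO rise of 1.09 passed the test (standard error 0.33, adjusted p = 0.0252). The KO call of Sqstm1 was lost without KO AKI replicate 2 (0.64, adjusted p = 0.0793), KO control replicate 1 (adjusted p = 0.0532) or KO control replicate 3 (adjusted p = 0.0926), and its WT difference passed without KO AKI replicate 2 (adjusted p = 0.0129) or replicate 3 (adjusted p = 0.0437).

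Of the 5 genes of glutathione synthesis and recycling, 1 rose in WT and 4 rose in KO. Gclc, the catalytic subunit of glutamate-cysteine ligase, which carries out the first step of glutathione synthesis, rose in both. Its signals were 14.29, 13.85 and 14.34 in WT control and 15.60, 15.71 and 15.88 in WT AKI, a 2.98-fold rise (1.58, standard error 0.28, adjusted p = 0.0031). In KO control they were 14.20, 13.80 and 13.50, and in KO AKI 16.09, 16.89 and 17.23, a 7.47-fold rise (2.90, standard error 0.28, adjusted p = 1.23e-05). Every AKI array was above every control array, and every KO AKI array was above every WT AKI array. Gclm, the modifier subunit of the same ligase, had a narrow range among controls, from 15.67 to 15.76 over both genotypes. It was at 16.04, 15.84 and 16.03 in WT AKI (difference 0.25, adjusted p = 0.396) and at 16.21, 16.31 and 16.74 in KO AKI (rise of 0.71, standard error 0.18, adjusted p = 0.0114). All AKI arrays were above all control arrays, with the KO AKI arrays highest.

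Slc7a11, the light chain of the antiporter that imports cystine for glutathione, was not above background on any WT array or KO control array. Its KO AKI signals were 5.48, 10.58 and 6.42, of which replicates 2 and 3 were above background, and it rose at least 2.20-fold (adjusted p = 0.0155). Without KO AKI replicate 2 the mean of the other KO AKI signals was below background, so that no bound remained, and without replicate 1 the bound was 4.42-fold. This call was lost without KO control replicate 2 (adjusted p = 0.0508), and without KO AKI replicate 2 the fitted difference fell from 3.20 to 1.65 (adjusted p = 0.000672). In WT, where both groups were within background, the adjusted p was 0.41, or 0.00546 when KO AKI replicate 2 was left out. Gsr, the reductase that regenerates glutathione with NADPH, was at 14.32, 14.28 and 14.57 in KO control and 14.49, 16.0004 and 15.38 in KO AKI. These groups overlapped in KO AKI replicate 1, and the rise was 0.90 (standard error 0.32, adjusted p = 0.0478). The adjusted p of Gsr rose to between 0.0514 and 0.177 without each of 10 arrays, and the call held only without KO AKI replicate 1 or WT AKI replicate 3. Without KO AKI replicate 2 its difference was 0.55. In WT its difference was 0.27 (adjusted p = 0.607), and Gss, the synthetase of the second step of glutathione synthesis, had differences of -0.27 in WT and -0.23 in KO (adjusted p = 0.433 and 0.453).

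All 4 genes of the thioredoxin system rose in KO and 1 of them rose in WT. Txnrd1, the cytosolic thioredoxin reductase, was at 12.47, 12.16 and 12.16 in WT control and 13.77, 13.80 and 14.53 in WT AKI, a 3.42-fold rise (1.77, standard error 0.39, adjusted p = 0.0104). It was at 12.08, 12.07 and 12.52 in KO control and 14.55, 16.59 and 15.76 in KO AKI, a 10.6-fold rise (3.41, standard error 0.39, adjusted p = 5.46e-05). No AKI array overlapped a control array, and KO AKI replicate 1 lay just above the highest WT AKI array. Srxn1, sulfiredoxin, which repairs overoxidised peroxiredoxins, had the widest range within a group. Its signals were 6.67, 6.88 and 6.93 in WT control and 8.86, 8.65 and 9.57 in WT AKI. With the KO label they were 7.79, 7.27 and 7.72 after saline and 9.45, 16.39 and 12.67 after cisplatin. KO AKI replicate 1 was inside the range of WT AKI, while replicate 2 was the highest array. The KO rise of 5.24 passed the test (standard error 1.11, adjusted p = 0.0038) and was 3.46 without KO AKI replicate 2 (adjusted p = 0.000859). The WT difference of 2.20 did not pass with all arrays (adjusted p = 0.205) and passed without KO AKI replicate 1 (adjusted p = 0.0343) or replicate 2 (adjusted p = 0.011).

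Prdx1, a peroxiredoxin that reduces peroxides, and Txn1, thioredoxin, had small changes at high signals. Prdx1 was at 18.02, 17.93 and 17.91 in KO control and 18.28, 19.16 and 18.45 in KO AKI, a rise of 0.68 (standard error 0.21, adjusted p = 0.0311), and at 18.23, 18.20 and 18.28 in WT AKI (difference 0.31, adjusted p = 0.356). Txn1 was at 16.22, 16.21 and 16.15 in KO control and 16.58, 17.00 and 16.97 in KO AKI, a rise of 0.66 (standard error 0.18, adjusted p = 0.0171), beside 0.25 in WT (adjusted p = 0.392). For both, all AKI arrays were above the control arrays of the same genotype. The KO call of Prdx1 was lost without KO AKI replicate 2 (0.41, adjusted p = 0.126) or any KO control array (adjusted p from 0.0641 to 0.0803). That of Txn1 was lost without KO AKI replicate 2, KO AKI replicate 3 or KO control replicate 3 (adjusted p from 0.0504 to 0.0543).

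Of the 7 enzymes that remove superoxide and hydrogen peroxide directly, 1 fell in WT and 2 fell in KO, and 0 passed the test upward. Sod2, the mitochondrial superoxide dismutase, was at 15.53, 15.50 and 15.36 in WT control and 14.63, 14.67 and 14.51 in WT AKI, a fall to below every control array (log2 difference -0.86, standard error 0.20, adjusted p = 0.0138). In KO control it was at 15.39, 15.31 and 15.48 and in KO AKI at 14.44, 13.76 and 14.41 (-1.19, standard error 0.20, adjusted p = 0.000892). The WT call of Sod2 was lost without WT AKI replicate 3 (adjusted p = 0.0517) or WT control replicate 1 (adjusted p = 0.0511). Sod1, the cytosolic form, was at 14.66, 14.89 and 14.60 in KO control and 14.19, 13.52 and 14.21 in KO AKI (-0.74, standard error 0.22, adjusted p = 0.0205). The WT AKI arrays (14.54, 14.86 and 14.53) overlapped those of WT control (14.83, 14.98 and 14.75), with a difference of -0.21 (adjusted p = 0.549). The KO call of Sod1 was lost without KO AKI replicate 2 (-0.52, adjusted p = 0.0818) or KO control replicate 2 (adjusted p = 0.0734).

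Sod3, the extracellular dismutase, stood at 13.18, 10.53 and 12.98 in KO AKI beside 13.22, 13.13 and 12.86 in KO control, so that KO AKI replicate 2 alone lay outside the range of the other groups. Its differences were -0.37 in WT and -0.84 in KO (adjusted p = 0.654 and 0.228), and without KO AKI replicate 2 the KO difference was 0.0084 (adjusted p = 0.983). Catalase (Cat) and the abundant cytosolic glutathione peroxidase Gpx1 had differences between 0.06 and 0.23 in both genotypes, with adjusted p from 0.553 to 0.882. Without KO AKI replicate 3 the KO differences were -0.12 for Cat and -0.17 for Gpx1, so no direction is given.

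Glutathione transferases attach glutathione to reactive compounds, and 5 of 7 rose and 1 fell in WT, and 6 rose and 1 fell in KO. Gsta2, an alpha-class transferase, was at 13.30, 12.62 and 13.36 in WT control and 16.82, 16.26 and 17.17 in WT AKI. It was at 15.31, 14.92 and 14.16 in KO control and 17.26, 18.40 and 18.01 in KO AKI. The 4 groups did not overlap and rose in order from WT control over KO control and WT AKI to KO AKI. The rise was 12.6-fold in WT (3.66, standard error 0.36, adjusted p = 3.83e-05) and 8.54-fold in KO (3.09, standard error 0.36, adjusted p = 5.44e-05). Gsta4, which conjugates lipid aldehydes such as 4-hydroxynonenal, had control signals from 9.44 to 9.98. It was at 11.31, 11.88 and 13.03 in WT AKI and 11.67, 12.28 and 12.92 in KO AKI, and rose by 2.55 in WT (standard error 0.37, adjusted p = 0.000911) and 2.38 in KO (adjusted p = 0.00052). The AKI groups overlapped each other. Gsta3 rose by 1.73 in WT (adjusted p = 0.000927) and by 1.10 in KO (adjusted p = 0.0063), with AKI signals from 14.95 to 15.86 over both genotypes.

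Mgst1, a membrane-bound transferase of the microsomes that also acts as a peroxidase, was at 13.81, 14.03 and 13.59 in WT control and 15.26, 15.53 and 16.16 in WT AKI, a 3.59-fold rise (1.84, standard error 0.42, adjusted p = 0.0113). In KO control it was at 13.02, 13.64 and 12.41 and in KO AKI at 15.87, 17.71 and 17.15, a 14.8-fold rise (3.89, standard error 0.42, adjusted p = 2.92e-05). AKI and control arrays were apart in each genotype, and KO AKI replicate 1 was inside the range of WT AKI. Without WT AKI replicate 3 the WT rise was 1.59 and did not pass the test (adjusted p = 0.0531). Gstm1, a mu-class transferase, was at 15.70, 15.69 and 15.66 in WT control and 17.39, 17.17 and 17.26 in WT AKI (rise of 1.59, standard error 0.29, adjusted p = 0.00336). It was at 16.04, 15.70 and 15.55 in KO control and 17.10, 17.89 and 18.54 in KO AKI (rise of 2.08, adjusted p = 0.000212). The 2 AKI groups overlapped, and KO AKI was the more spread of them.

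Gstm2, another mu-class transferase, went the other way. It was at 9.10, 9.74 and 9.79 in WT control and 8.99, 8.42 and 8.80 in WT AKI (-0.81, standard error 0.24, adjusted p = 0.0426), and at 10.26, 9.66 and 9.88 in KO control and 8.81, 8.49 and 8.75 in KO AKI (-1.25, standard error 0.24, adjusted p = 0.0022). The groups did not overlap within either genotype. The WT call of Gstm2 was lost, with adjusted p from 0.055 to 0.143, without WT control replicate 2 or 3, any WT AKI array or KO control replicate 3. Gstp1, the pi-class transferase, rose in KO by 2.02 (standard error 0.49, adjusted p = 0.00792), from 8.76, 9.53 and 7.93 to 9.39, 11.64 and 11.23, with KO AKI replicate 1 inside the control range. In WT its difference was 0.91 (adjusted p = 0.228). Transferases of a class are close in sequence, and the probe sequences were not used here, so signal shared between Gsta, Gstm or Gstp genes cannot be told apart.

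Enzymes of heme, quinones and carbonyls held large rises, with 4 of 7 up in WT and 6 of 7 in KO. Hmox1, heme oxygenase 1, was at 9.01, 9.48 and 9.02 in WT control and 11.56, 12.45 and 12.62 in WT AKI. It was at 8.20, 8.97 and 9.12 in KO control and 12.05, 16.17 and 13.68 in KO AKI. KO AKI replicate 1 fell within the range of WT AKI, and both AKI groups were above all controls. The rise was 3.04 in WT (standard error 0.71, adjusted p = 0.0138) and 5.20 in KO (adjusted p = 0.000202). Without WT AKI replicate 3 or WT control replicate 1 the WT adjusted p was 0.0541 and 0.0515. Nqo1, a quinone reductase often used as a readout of NRF2, was at 9.73, 9.03 and 9.32 in WT control and 11.78, 11.95 and 13.23 in WT AKI. It was at 11.02, 10.57 and 10.67 in KO control and 12.55, 14.12 and 14.34 in KO AKI. KO control stood above WT control without overlap, and WT AKI overlapped KO AKI. The 2 cisplatin rises were nearly equal, at 2.96 in WT (standard error 0.44, adjusted p = 0.00109) and 2.92 in KO (adjusted p = 0.000419).

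Cbr1 and Cbr3 are carbonyl reductases. Cbr1 was at 8.55, 8.86 and 8.57 in WT control and 11.15, 11.29 and 12.96 in WT AKI, an 8.85-fold rise (3.15, standard error 0.54, adjusted p = 0.00246). It was at 8.44, 8.46 and 8.46 in KO control and 11.996, 13.41 and 14.56 in KO AKI, a 29.2-fold rise (4.87, standard error 0.54, adjusted p = 3.66e-05). All AKI arrays lay above all control arrays, and replicate 3 was the highest array in both AKI groups. For Cbr3 no control array was above background. It was at 6.12, 6.06 and 8.44 in WT AKI, where replicate 3 alone was above background, and at 8.05, 9.33 and 12.03 in KO AKI. It rose at least 1.56-fold in WT (adjusted p = 0.0172) and at least 10.9-fold in KO (adjusted p = 0.000196). The KO bound was 5.03-fold without KO AKI replicate 3 and 20.0-fold without replicate 1, and no WT bound remained without WT AKI replicate 3. The WT call of Cbr3 was lost without WT AKI replicate 3 (adjusted p = 0.0737), WT control replicate 1 (adjusted p = 0.0591) or WT control replicate 2 (adjusted p = 0.0524).

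Blvrb, a biliverdin reductase, was at 6.65, 6.87 and 5.94 in WT AKI and 6.35, 11.0004 and 8.51 in KO AKI, with no control array above background. It rose at least 4.81-fold in KO (adjusted p = 0.0122), a bound of 2.11-fold without KO AKI replicate 2 and 10.6-fold without replicate 1, and its fitted difference of 2.93 was 1.75 without KO AKI replicate 2 (adjusted p = 0.0123). In WT its adjusted p was 0.61. Ugdh, which makes UDP-glucuronate for glucuronidation, was at 12.28, 11.70 and 11.81 in KO control and 12.57, 15.18 and 13.53 in KO AKI, a rise of 1.83 (standard error 0.46, adjusted p = 0.0104) that was 1.12 without KO AKI replicate 2 (adjusted p = 0.0116). Its WT difference was 0.97 (adjusted p = 0.178, or 0.0158 when KO AKI replicate 2 was left out), with WT AKI at 12.15 to 12.26 and WT control at 11.02 to 11.61. Osgin1, a target of NRF2 that is induced by oxidative stress in other cells, had differences of 0.02 in WT, which was -0.13 with median centring, and 0.33 in KO (adjusted p = 0.97 and 0.295).

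**Figure D2:**
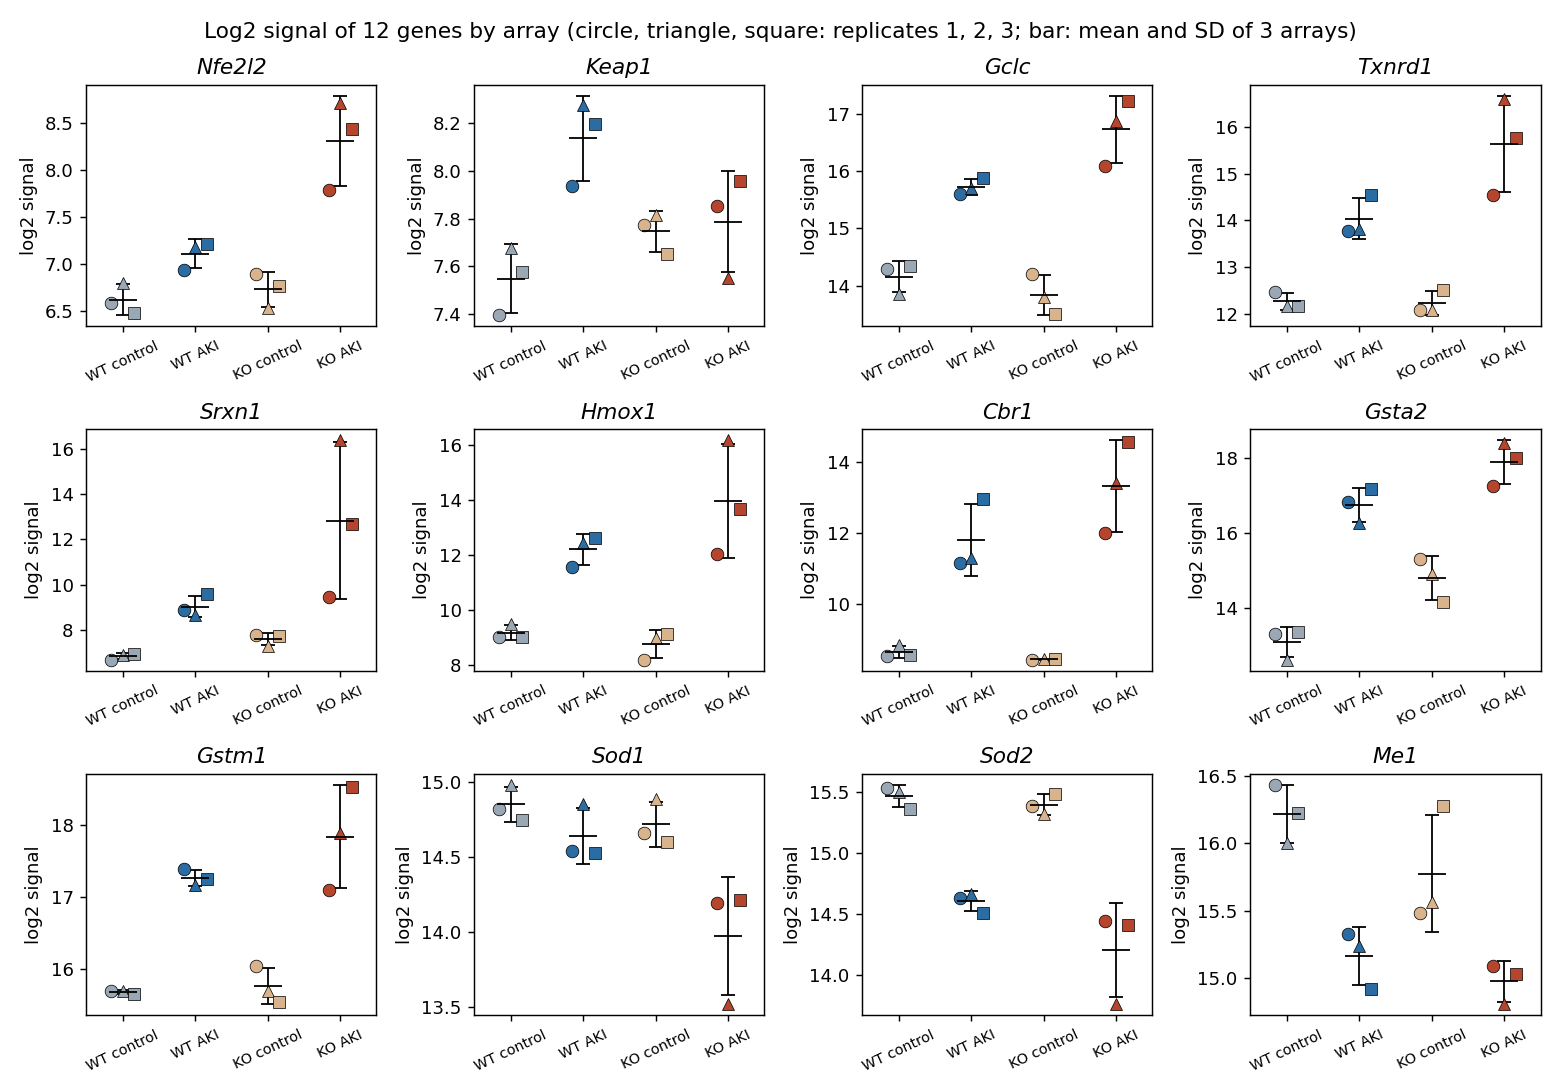
Log2 signal (y axis, each panel with its own range that does not start at 0) of 12 genes in the 4 groups, with circles, triangles and squares for replicates 1, 2 and 3 and bars for the mean and SD of 3 arrays. In Srxn1 and Hmox1 KO AKI replicate 2 is the highest array (16.39 and 16.17), in Cbr1 and Gstm1 replicate 3 is (14.56 and 18.54), and in Sod1 and Sod2 the KO AKI points are the lowest.

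The efflux pumps move conjugates out of the cell. Abcc4 (MRP4) was at 10.81, 10.76 and 10.40 in WT control and 12.28, 11.97 and 12.92 in WT AKI, a 3.33-fold rise (1.73, standard error 0.33, adjusted p = 0.00471). It was at 11.13, 11.22 and 11.17 in KO control and 12.97, 14.31 and 14.31 in KO AKI, a 6.46-fold rise (2.69, adjusted p = 9.02e-05). The 4 groups did not overlap. Abcc1 (MRP1) had a difference of -0.0047 in WT (adjusted p = 0.993) and of 0.73 in KO (standard error 0.27, adjusted p = 0.0611), with KO AKI at 7.77 to 8.38 and KO control at 7.39 to 7.53. The KO difference of Abcc1 passed the test without KO AKI replicate 3 (adjusted p = 0.0324), WT AKI replicate 1 (adjusted p = 0.0486) or WT AKI replicate 3 (adjusted p = 0.0287).

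Genes of NADPH supply went both ways. Pgd, the dehydrogenase of the oxidative pentose phosphate pathway, was at 8.59, 9.05 and 8.66 in WT control and 10.22, 10.49 and 11.08 in WT AKI, a 3.54-fold rise (1.82, standard error 0.35, adjusted p = 0.00454). It was at 8.87, 8.79 and 8.58 in KO control and 10.88, 12.56 and 11.71 in KO AKI, a 7.83-fold rise (2.97, adjusted p = 5.89e-05). All AKI arrays were above all controls. Taldo1, transaldolase of the non-oxidative branch, was at 9.95, 10.25 and 9.89 in KO control and 10.19, 13.08 and 11.53 in KO AKI, where replicate 1 stayed within the control range. Its KO rise of 1.57 (standard error 0.49, adjusted p = 0.0293) was 0.83 without KO AKI replicate 2 (adjusted p = 0.0698), and the call was also lost without KO AKI replicate 3 or any KO control array (adjusted p from 0.054 to 0.0837). In WT the difference was 0.18 (adjusted p = 0.835). Me1, cytosolic malic enzyme, fell from 16.43, 16.003 and 16.22 to 15.33, 15.24 and 14.92 in WT (-1.05, standard error 0.23, adjusted p = 0.00988), and from 15.49, 15.57 and 16.27 to 15.09, 14.81 and 15.04 in KO (-0.80, adjusted p = 0.0208). No AKI array overlapped a control array of its genotype. The KO call of Me1 was lost without KO AKI replicate 2 (-0.71, adjusted p = 0.0578) or KO control replicate 3 (-0.55, adjusted p = 0.0936).

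**Figure D3:**
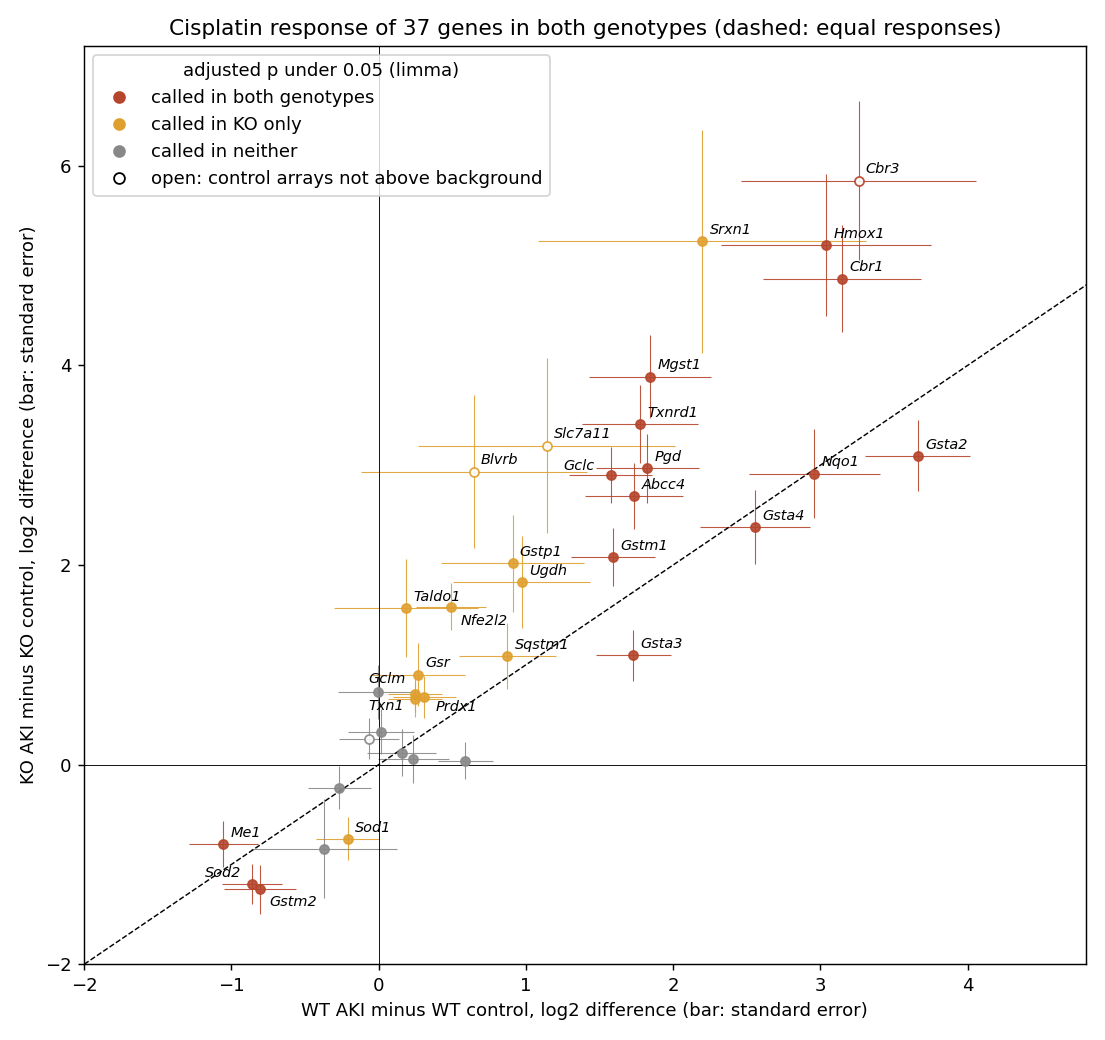
Cisplatin response of 37 genes (Gpx3, at the ceiling, left out), with the WT log2 difference on the x axis and the KO log2 difference on the y axis, standard errors as bars and equal responses as the dashed line. Mgst1, Txnrd1, Hmox1, Cbr1 and Srxn1 lie above the line and Gsta2 and Gsta3 below it, while the difference between the responses passed the test for 0 genes. Open points were not above background on control arrays, so their position is fitted within background.

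The responses of the 2 genotypes were compared by the interaction of genotype and cisplatin. None of the 38 genes passed this test with limma, where 0.0308% of all genes did, and 7 of 38 had an unadjusted p under 0.05, beside 10.4% of all genes. The smallest adjusted p was 0.268, that of Mgst1, whose rise was larger in KO by 2.04 (standard error 0.59). The KO response was larger by 1.33 for Gclc (adjusted p = 0.284), by 1.09 for Nfe2l2 (adjusted p = 0.294) and by 1.64 for Txnrd1 (adjusted p = 0.356). For Gsta2 and Gsta3 the interaction was -0.57 and -0.63 (adjusted p = 0.748 and 0.571). The median interaction of the 38 genes was 0.44, beside -0.005 over all genes, and 26 of 38 were positive. At an unadjusted p under 0.01 with a difference over 2-fold, 3 of 38 passed (Nfe2l2, Gclc and Mgst1), beside 2.43% of all genes. Without KO AKI replicate 1, 7 of the 38 genes passed at an adjusted p under 0.05, all toward a larger KO response: Nfe2l2, Gclc, Txnrd1, Srxn1, Mgst1, Blvrb and Taldo1. In that fit 169 of all 19505 genes passed upward and 168 downward, beside 2 and 4 with all arrays.

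After cisplatin, Nfe2l2 was the 1 gene of 38 that passed the test between KO AKI and WT AKI, where 0.487% of all genes did (0.246% up). This comparison uses the same AKI arrays as the cisplatin comparisons. Nfe2l2 was 2.30-fold higher in KO AKI, a log2 difference of 1.20 (standard error 0.24, adjusted p = 0.0428), and all 3 KO AKI arrays were above all 3 WT AKI arrays. Its call was lost without any 1 of 11 arrays, with adjusted p from 0.0584 to 0.19 and the highest without WT AKI replicate 2, and held only without KO AKI replicate 1 (1.47, adjusted p = 0.00203). The other 37 genes did not pass, and 21 of 38 had an unadjusted p under 0.05, beside 15.3% of all genes. The median of the 38 genes was 0.66, beside -0.009 over all genes, and 28 of 38 were higher in KO AKI. Among genes above background on every array of both AKI groups, the largest fitted differences were 3.81 for Srxn1 (standard error 1.11, adjusted p = 0.129), 1.76 for Hmox1 (adjusted p = 0.259) and 1.60 for Txnrd1 (adjusted p = 0.0814). Cbr3 and Blvrb, above background on 1 and 2 of the 3 WT AKI arrays, had fitted differences of 2.92 and 2.14 (adjusted p = 0.107 and 0.194). Abcc4 differed by 1.47 (standard error 0.33, adjusted p = 0.0642) and Gclc by 1.003 (adjusted p = 0.114).

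The AKI groups were separated for Nfe2l2, Gclc, Gclm, Txnrd1, Prdx1, Gsta2, Ugdh and Abcc4, which were higher on all KO AKI arrays, and for Sod1 and Sod2, which were lower on all of them. The gap between the nearest arrays of the groups was narrow for Txnrd1, Prdx1, Gsta2, Abcc4 and Sod2. For Prdx1 these nearest signals were equal at the digits printed above. Among all genes 8.42% were separated upward and 8.76% downward. The study's thresholds were p under 0.01 and a change over 2-fold, and it does not say whether p was adjusted. Here they were applied to unadjusted limma p-values, and the study's own test was not repeated. At these thresholds 11 genes were higher in KO AKI (Nfe2l2, Gclc, Txnrd1, Srxn1, Gsta2, Mgst1, Nqo1, Cbr3, Ugdh, Abcc4 and Pgd) and 0 lower, where 3.1% of all genes passed (1.42% up). Of these, Gsta2 and Nqo1 were also higher at the same thresholds in KO control than in WT control, as given below.

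The number that passed between KO AKI and WT AKI turned on KO AKI replicate 1. Without it 19 of the 38 genes were higher in KO AKI, among them Srxn1 (5.505, adjusted p = 0.000858), Cbr3 (3.80, adjusted p = 0.0089), Hmox1 (2.72, adjusted p = 0.0121), Txnrd1 (2.14, adjusted p = 0.0015), Abcc4 (1.91, adjusted p = 0.00117) and Gclc (1.32, adjusted p = 0.00868). Over all 19505 genes that fit called 563 up and 611 down, beside 48 and 47 with all arrays. Without KO AKI replicate 2 none of the 38 genes passed, and 57 of all genes were up and 64 down. In that fit Srxn1 was at 2.03, Hmox1 at 0.66, Txnrd1 at 1.12, Abcc4 at 1.25 and Gclc at 0.93. Slc7a11 went from a fitted 1.88 to 0.34 and Sod3 from -1.07 to -0.22 without KO AKI replicate 2. Nfe2l2 (0.999 to 1.47), Abcc4 (1.24 to 1.91) and Gclc (0.76 to 1.32) moved less when any 1 of the KO AKI arrays was left out.

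**Figure D4:**
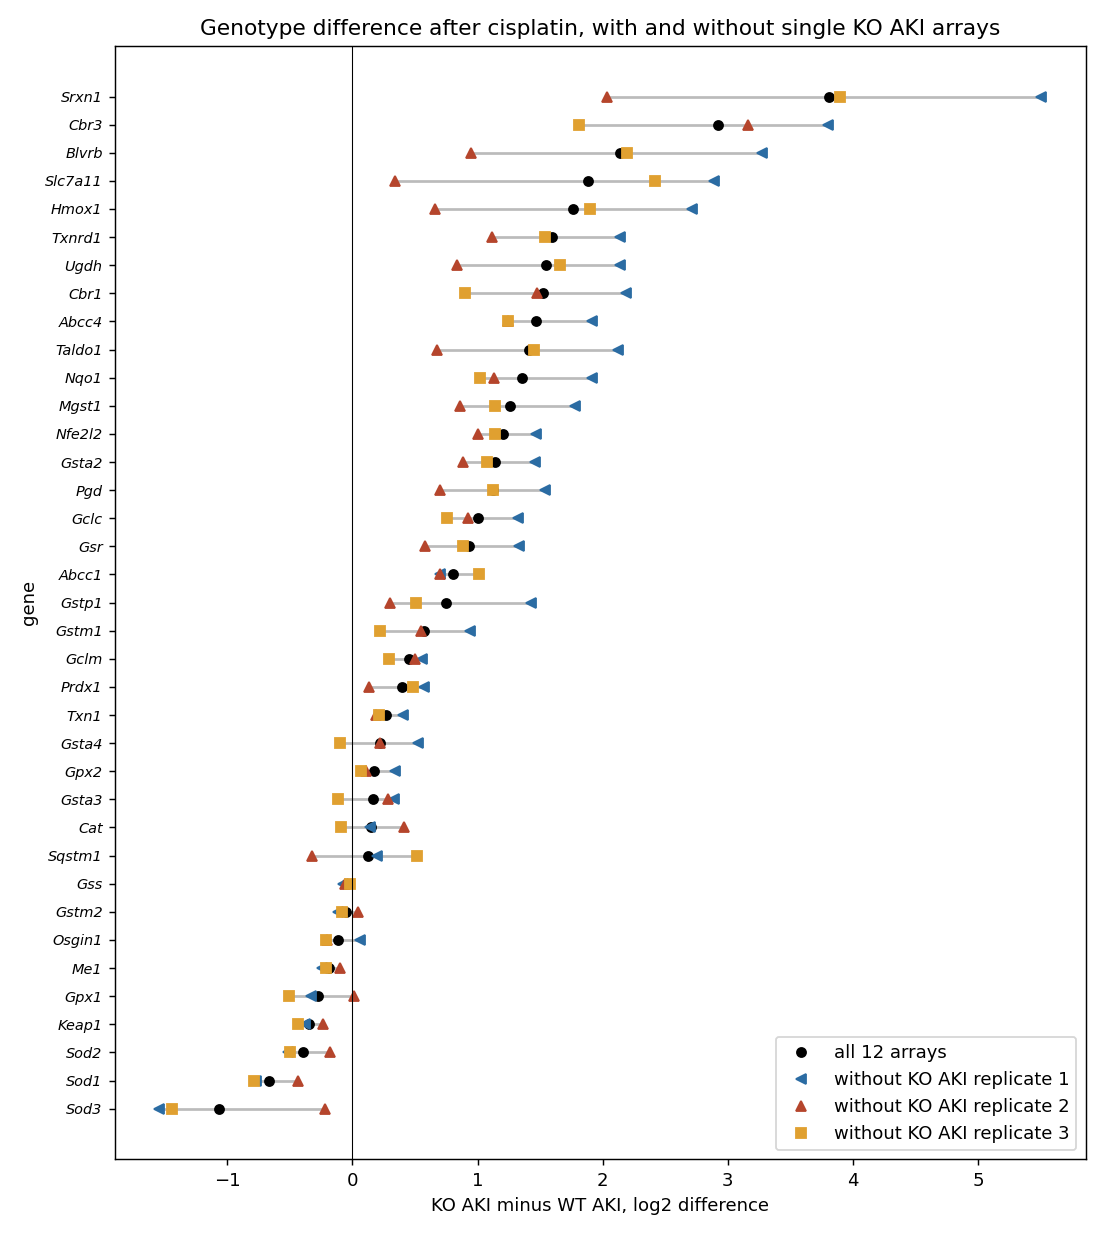
Log2 difference of KO AKI from WT AKI (x axis) for 37 genes (y axis, Gpx3 left out), with all 12 arrays (black circles) and without KO AKI replicate 1, 2 or 3 (coloured symbols). The grey lines are long for Srxn1 (2.03 to 5.505) and Slc7a11 (0.34 to 2.89) and short for Nfe2l2 and Abcc4, and values without replicate 1 are the highest for most of the genes that are higher in KO AKI.

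The KO AKI arrays differed among themselves more than those of the other groups. The median SD of the 38 genes over 3 arrays was 0.175 and 0.212 in the saline and cisplatin groups of WT, and 0.190 and 0.606 in those of KO. Over all genes the median SD in KO AKI was 0.311. An SD over 1 was found for 11 of the 38 genes in KO AKI, beside 4.99% of all genes, for 2 in WT AKI and for 0 in the control groups. Measured from the mean of the control arrays of the same genotype, the median of the 38 genes was 0.61, 0.74 and 0.68 in WT AKI and 0.66, 1.99 and 1.55 in KO AKI, for replicates 1, 2 and 3 of each. KO AKI replicate 1 was thus level with the WT AKI arrays, and it was the lowest KO AKI array for 26 of the 37 genes below the ceiling.

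KO AKI replicates 2 and 3 led different genes. Replicate 2 was highest for 16 genes, among them Nfe2l2, Srxn1, Txnrd1, Slc7a11, Hmox1, Blvrb, Mgst1, Ugdh and Taldo1. Replicate 3 was highest for 15, among them Gclc, Gclm, Gsta3, Gsta4, Gstm1, Nqo1, Cbr1, Cbr3 and Abcc4. Replicate 2 was also the lowest array for 8 genes, namely Keap1, Sod1, Sod2, Sod3, Cat, Gpx1, Gstm2 and Me1. Set against the mean of replicates 1 and 3, replicate 2 differed by a median of 0.24 over the 38 genes, with 12 higher and 1 lower by more than 1. Over all 19505 genes the median was 0.02, with 1071 higher and 1327 lower by more than 1. On the same array the 20 proximal tubule genes differed by a median of -3.18 and the 9 injured tubule genes by 1.72. The 9 thick ascending limb and distal tubule genes differed by -1.76, the 11 macrophage and monocyte genes by -1.12 and 7 neutrophil genes by 1.19. Of the 7 neutrophil genes, 4 were above background on no array, and none was above it on all 3 KO AKI arrays. Their median therefore rests largely on signals within background. In WT AKI, replicate 3 was highest for 24 of the 37 genes, and its 3 arrays were close in the other measures given above.

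Between the saline groups none of the 38 genes passed the test with limma, where 0.0513% of all genes did, and 3 of 38 had an unadjusted p under 0.05, beside 6.17% of all genes. The median of the 38 differences, KO control minus WT control, was -0.02, beside -0.004 over all genes. Gsta2 had the largest difference, 1.71 (standard error 0.36, adjusted p = 0.264), followed by Nqo1 with 1.39 (standard error 0.44, adjusted p = 0.605) and Gsta3 with 0.80 (standard error 0.25, adjusted p = 0.599). Gsta2 and Nqo1 also passed an unadjusted p under 0.01 with a change over 2-fold, as 0.518% of all genes did. The groups were separated upward for 9 genes (Gsr, Srxn1, Cat, Gsta2, Gsta3, Gsta4, Nqo1, Ugdh and Abcc4) and downward for 4 (Txn1, Sod3, Cbr1 and Osgin1), beside 7.25% and 7.37% of all genes.

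A wider list of 85 genes of the same pathways, of which 77 were measured, was read in the same way. In WT 9 of these 77 rose and 7 fell, where 8.63% of all genes rose and 5.34% fell. In KO 19 rose and 19 fell, where 15.4% rose and 12.6% fell. Their median differences were 0.05 and 0.07, close to those of all genes, and 0 passed the test between KO AKI and WT AKI, between the controls or for the interaction. Among detoxification enzymes (12 measured, 2 up in WT, 4 up and 4 down in KO), Ephx1, microsomal epoxide hydrolase, rose by 3.22 in WT (standard error 0.31, adjusted p = 3.78e-05) and 4.83 in KO (adjusted p = 4.75e-07). Akr1b8, an aldo-keto reductase, was at 6.90 ± 0.11 and 10.27 ± 0.52 (SD, n = 3) in WT control and WT AKI, and at 6.14 ± 0.60 and 12.68 ± 2.02 (SD, n = 3) in the KO groups. It rose by 3.37 in WT (adjusted p = 0.00703) and 6.54 in KO (adjusted p = 2.81e-05), with 1 of 3 KO control arrays above background. Among 6 other efflux pumps, 4 rose in each genotype, with Abcb1a up by 3.39 in WT and 3.03 in KO (adjusted p = 0.000444 and 0.000347) and Abcb1b by 3.27 and 3.34 (adjusted p = 2.9e-05 and 8.6e-06). Both encode P-glycoproteins.

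The lists of glutathione supply and turnover and of other NADPH genes held calls in both directions in KO. Of 10 supply and turnover genes, 1 rose and 2 fell in WT, and 2 rose and 3 fell in KO. Cbs, which starts the conversion of homocysteine to cysteine, was at 12.97 ± 0.14 and 11.54 ± 0.41 (SD, n = 3) in WT control and WT AKI (-1.42, adjusted p = 0.0613). In KO control and KO AKI it was at 13.48 ± 0.27 and 9.37 ± 1.33 (SD, n = 3), a fall of 17.3-fold (-4.12, standard error 0.47, adjusted p = 5.2e-05). Ggct, a cyclotransferase of glutathione breakdown, fell in both genotypes (-1.9995 and -2.87, adjusted p = 0.000414 and 8.2e-06). Of 8 other genes of NADPH supply, 1 fell in WT, and 1 rose and 2 fell in KO. Me3, mitochondrial malic enzyme, fell in both (-1.29 and -2.10, adjusted p = 0.016 and 0.000363), and Idh2, mitochondrial isocitrate dehydrogenase, differed by -1.04 in WT (adjusted p = 0.202) and fell by 2.82 in KO (adjusted p = 0.0016).

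The remaining lists moved less evenly. Of 15 other transferases, 0 rose and 1 fell in WT, and 5 rose and 5 fell in KO, with Gstp2 up by 1.88 (adjusted p = 0.006) and Gstk1, of mitochondria and peroxisomes, down (-2.22, adjusted p = 0.000734). Of 5 other glutathione peroxidases, 1 fell in each genotype, Gpx6 (-1.62 and -2.73, adjusted p = 0.00397 and 3.61e-05). Of 8 other thioredoxin and peroxiredoxin genes, 2 fell in WT, and 1 rose and 1 fell in KO. Prdx4, the peroxiredoxin of the endoplasmic reticulum, fell in both genotypes (-0.87 and -1.06, adjusted p = 0.0325 and 0.00649), and Txnip, the inhibitor of thioredoxin, rose by 0.88 in KO (adjusted p = 0.0338). Of 13 other regulators and partners, 2 rose in WT, and 2 rose and 3 fell in KO. Maff, a small MAF protein, was above background on 0 control arrays and rose at least 1.29-fold in WT (adjusted p = 0.000269) and at least 1.15-fold in KO (adjusted p = 6.84e-05), where no bound remained without KO AKI replicate 2. Nfe2l3, a relative of NRF2, passed the test downward in KO (adjusted p = 0.0277), with 1 KO control array and 0 KO AKI arrays above background, so that no fold is given.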

How the data were processed

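Kidney RNA of 12 mice was read on Clariom S arrays, and the sample labels gave the groups. For every probe set of an array the authors deposited a log2 signal. The submitters' processing notes name Transcriptome Analysis Console, whose version is not given in the sources used here, nor are the background correction and the normalization. No further normalization was applied. Of 28846 entries, 6640 were array controls, and 19572 of the other 22206 probe sets had 1 gene symbol. For the 55 genes with several probe sets, none of them among the 38 genes described, the one of highest mean signal was kept, which leaves 19505 genes.

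With limma 3.58.1 (R 4.3.3), lmFit and eBayes were run on the 12 arrays with a mean for each group (residual df 8, prior df 5.6), so that the groups share 1 estimate of the spread. Cisplatin was compared with saline in each genotype, KO with WT in each treatment, and the cisplatin responses by the interaction. The p-values were adjusted by Benjamini-Hochberg over all genes. The fit was first tried on simulated data in which each gene had the same spread in all 4 groups. Those data lack the wider spread of KO AKI, so they do not check the calls that involve KO AKI. A gene above background on no array of the lower group is given a bound, taken from the higher group's mean and the lower group's mean background. Precision is limited by how many arrays there are, and since an exact permutation test with 3 arrays a group cannot give a p under 0.1, none was run. The text names Nfe2l2, Keap1, each gene called between the genotypes, and in each role up to 4 called genes with the largest cisplatin difference and 1 against the majority, and gives the others briefly. Of the wider lists it names up to 2 called genes each with the largest KO difference. The 38 genes, the lists and the rule were chosen with earlier results of these data known. The alternatives were quantile normalization, median centring, array weights, eBayes with trend and robust options, a filter on dim probe sets, the mean of probe sets, a fit of the compared groups alone, the replicate number as a block, the study's thresholds, and leaving out each array. The labels and methods give no batch or scan date. The labels do not say whether mice of a group were littermates, so the p-values measure the spread between these mice alone.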

Additional observations from a re-analysis of the deposited data

How the results depend on the processing

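Differences changed sign under 1 or more alternatives for 3 of the 38 genes in WT, 4 in KO, 8 between KO AKI and WT AKI, 10 between the controls and 7 for the interaction (Gpx3 left out), of which 0 passed the test with all arrays and 0 after the change. Leaving out each of the 12 arrays in turn gave 11 to 21 genes called in WT with cisplatin (16 with all arrays), 22 to 30 in KO (29), 0 to 19 between KO AKI and WT AKI (1), 0 to 0 between the controls (0) and 0 to 7 for the interaction (0). In WT these fits called 929 to 2384 of all genes up and 540 to 1656 down. In KO they called 2172 to 3049 of all genes up and 1754 to 2580 down. Between KO AKI and WT AKI 1 to 563 were up and 1 to 611 down. For the interaction 0 to 169 were up and 0 to 168 down, and between the controls 1 to 9 and 0 to 18. In these fits 11 of the 16 WT calls and 21 of the 29 KO calls held every time. A fit of the compared groups alone called 17 genes in KO (15 up and 2 down) and 0 between KO AKI and WT AKI. With WT control and WT AKI alone, 18 of the 38 genes rose, beside 13 with all groups fitted. The count that fell was 3 in either fit. More genes thus rose in WT than in KO under this fit, the reverse of the order with all groups fitted. Over all genes it called 2054 up and 1553 down in KO, and 1 up and 0 down between KO AKI and WT AKI. Its WT counts over all genes, 2311 up and 1658 down, were higher than with all groups fitted. It was not run for the interaction. The cause of its lower counts in KO and between the AKI groups, and of its higher counts in WT, was not tested. Array weights called 2 genes between KO AKI and WT AKI (Nfe2l2 and Abcc4) and 1 between the controls (Gsta2). Over all genes they called 87 up and 96 down in the former, and 11 up and 24 down in the latter. The thresholds of the study's analysis called 11 between KO AKI and WT AKI, 2 between the controls and 3 for the interaction (Nfe2l2, Gclc and Mgst1). Over all genes the shares at these thresholds were 3.1%, 0.518% and 2.43%. Apart from the replicate block, given below, the other alternatives kept the counts within 1.5 times. Scaling moved the balance over all genes. With the deposited values 1684 genes were up and 1042 down in WT, and in KO 2996 and 2449. Quantile normalization gave 1302 and 1265 in WT and in KO 2658 and 2743, and median centring gave 1097 and 1731, and 2290 and 3178. Median centring moved the median of all genes from 0.055 to -0.093 in WT, and in KO from 0.057 to -0.066. The 38 genes split into 13 up and 2 down (WT) and 25 and 3 (KO) under the first, and 13 and 3 (WT) and 23 and 4 (KO) under the second. No pairing of the arrays by replicate number was seen, with correlations of -0.114 to 0.088 over 18 pairs and the best match carrying the same number in 9 of 36 cases. This check uses deviations from the means of 3 arrays a group, so it cannot exclude a pairing. The replicate block called 15 genes in WT, 29 in KO and 0 between KO AKI and WT AKI, where the adjusted p of Nfe2l2 was 0.0675. Over all genes the block called 22 up and 22 down between KO AKI and WT AKI, beside 48 and 47 without it. The 3 arrays of a group and signals within background limit what can be seen of Slc7a11, Blvrb, Cbr3 and Gpx2, and the ceiling limits Gpx3.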
